A study of Mus musculus with 14 samples.

Results

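Whole-tibia RNA of ovariectomized mice that received no bisphosphonate was compared with tibia RNA of sham-operated mice, to ask what removal of the ovaries changed whatever else the animals were given. The ovariectomized libraries numbered 8 of the 14 in the series: 3 after phosphate-buffered saline (OVX-PBS), 3 after hippuric acid (OVX-HA) and 2 after 3-(3-hydroxyphenyl)propionic acid (OVX-PPA). They were set against 3 libraries of sham-operated mice. The other 3 libraries, of ovariectomized mice given the bisphosphonate zoledronic acid (OVX-ZA), which blocks osteoclasts, stood outside the comparison and are given only beside single results. Hippuric acid and 3-(3-hydroxyphenyl)propionic acid are small acids that gut microbes and liver form from plant phenols. All animals were wild-type female C57Bl/6 mice, treatment began within days of surgery and lasted 8 weeks, and neither age nor dose is given in the labels. Whether each library came from a separate animal is not stated either, so p-values measure the spread between these samples, which may be partly technical.

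Ovariectomy removes the main source of estrogen and is the standard rodent model of postmenopausal bone loss. Estrogen restrains osteoclasts, in part by raising osteoprotegerin (Tnfrsf11b), the decoy receptor that keeps RANKL (Tnfsf11) from its receptor, and it also restrains the formation of B lymphocytes in the marrow. Developing B cells pass through pro-B and pre-B stages there. They rearrange antibody genes with the Rag1 and Rag2 recombinase and carry a surrogate light chain, built of Vpreb and Igll1 (lambda 5), on the pre-B cell receptor.

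Values are CPM, counts divided by library size with scaling by edgeR's TMM method (TMM CPM), and differences are log2 values of OVX minus sham with their standard error (SE). Of 21094 genes tested with edgeR's quasi-likelihood test on all 11 libraries, 0 were called higher and 0 lower in OVX at a Benjamini-Hochberg FDR of 0.05, 0% in each direction, and the smallest adjusted p was 0.278. At an unadjusted edgeR p below 0.05, 295 genes (1.4%) were higher and 246 (1.17%) lower in OVX, 541 in all, where a uniform spread of p-values would give 1055. Without sham replicate 3 that count was 868. In 106 genes (0.503%) every OVX library lay above every sham library, and in 64 (0.303%) below. DESeq2 on the same counts called 2 genes higher in OVX (0.00949%), Col14a1 and Vpreb2, and 4 lower (0.019%), Alb, Fkbp5, Il4ra and Tmem86a. The 3 OVX treatments were not told apart by the same edgeR fit, which called 0 genes (0%) among OVX-PBS, OVX-HA and OVX-PPA and had 174 (0.825%) at an unadjusted p below 0.05. Because no gene passed the FDR in edgeR, the differences described here are of genes that did not pass it, and the intervals given are 95% intervals of single genes from the edgeR fit.

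Total estimated counts per library ran from 18744895 to 35418060 in OVX and from 29235959 to 32590683 in sham. They contained bone and marrow transcripts throughout, with Col1a1, the main chain of bone collagen, at 2039 to 4961 TMM CPM in OVX and 2021 to 2509 in sham. They also held transcripts that do not belong to bone. The mean log2 CPM of 23 nervous tissue genes, many of them myelin genes, ran from 2.34 to 6.98 in OVX and was 6.89, 6.93 and 5.92 in sham. The 2 lowest libraries were OVX-PBS replicate 1 at 2.78 and OVX-HA replicate 2 at 2.34, and the other OVX libraries were at 6.26 or above. Each sham library also held transcripts of another organ, described with their values at the end.

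Genes of developing B cells had higher values in OVX. Of 24 genes on a pro-B and pre-B cell list, all of which were tested, 19 were higher in OVX, against 50.2% of all genes, and 12 were higher at an unadjusted edgeR p below 0.05, against 1.4% of all genes. None was lower at that p. Bst1, a list member, had 57 to 233 counts in OVX, against 87, 349 and 112 in sham. Cplx2 and Arpp21, also on the list, were lowest in OVX-PBS replicate 1 and OVX-HA replicate 2, which held little nervous tissue RNA. Those libraries had 918 and 1419 counts of Cplx2, against 1598 to 3664 in the others. For Arpp21 they had 124 and 229, against 241 to 565. The part of nervous tissue RNA in the list mean was not tested. In 5 of the 24 every OVX library lay above every sham library, against 0.503% of all genes, namely Vpreb1, Vpreb2, Igll1, Pax5 and Ebf1. The median log2 difference of the list was 0.53, beside 0.00 over all genes tested, and it was 0.62, 0.41 and 0.55 for OVX-PBS, OVX-HA and OVX-PPA, which share the sham libraries. Bulk RNA cannot tell more cells of a type from more RNA per cell.

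Vpreb1, a chain of the surrogate light chain, ran from 2.82 to 8.12 TMM CPM in OVX (median 5.36), against 1.39, 2.73 and 2.09 in sham replicates 1, 2 and 3. The groups did not overlap, although the lowest OVX library, OVX-PPA replicate 1 at 2.82, lay close to sham replicate 2. The log2 difference was 1.41 ± 0.33 (SE, 95% interval 0.68 to 2.13), with an edgeR adjusted p of 0.996. Igll1, the partner of Vpreb1 in the surrogate light chain, ran from 3.20 to 11.1 TMM CPM in OVX (median 6.599), against 2.26, 3.15 and 2.696 in sham. Here too OVX-PPA replicate 1 was the lowest OVX library and was nearly level with sham replicate 2, and the log2 difference was 1.37 ± 0.35 (SE, edgeR adjusted p 0.996). Vpreb2, a near copy of Vpreb1, had 8 to 38 counts per OVX library and 2, 7 and 3 counts in the sham libraries. Its log2 difference of 2.598 ± 0.51 (SE) passed DESeq2 with an adjusted p of 0.0419 and did not pass edgeR, where the adjusted p was 0.658.

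The genes of the surrogate light chain lie on chromosome 16 (GRCm38, GENCODE). Igll1 spans chr16:16860671-16863985 and Vpreb1 spans chr16:16868403-16870843, both on the minus strand and 4417 bases apart, while Vpreb2 spans chr16:17980428-17981273 on the plus strand. The coding transcripts of Vpreb1 and Vpreb2 are identical at 739 of 759 aligned positions (97.4%), with an unbroken identical run of 196 bases. Of the 685 places where a read of 75 bases can start on Vpreb2, 136 (19.9%) also occur in Vpreb1, so the split of reads between the pair is uncertain. At its 5′ end Vpreb1 also overlaps Top3b on the other strand, and the sources used here do not say whether counting used strand. Top3b itself differed by 0.0058 ± 0.074 (SE). The sequences before their starts are shown because these genes had the largest differences of the list; they are from RefSeq (GRCm38.p6), 5′ to 3′, with E-box motifs (CAGNTG) and EBF-type motifs (CCCNNGGG) in capitals, both searched on either strand. EBF1 and the E-box factor E2A are the factors best known for switching on the surrogate light chain genes. The Vpreb1 stretch is chr16:16869256-16869505, which lies before the start of the coding transcript and inside the span of the gene, since GENCODE also annotates noncoding transcripts of Vpreb1 that start farther upstream. That of Vpreb2 is chr16:17980315-17980427, which ends where the annotated first exon begins, and that of Igll1 is chr16:16863986-16864235.
Vpreb1: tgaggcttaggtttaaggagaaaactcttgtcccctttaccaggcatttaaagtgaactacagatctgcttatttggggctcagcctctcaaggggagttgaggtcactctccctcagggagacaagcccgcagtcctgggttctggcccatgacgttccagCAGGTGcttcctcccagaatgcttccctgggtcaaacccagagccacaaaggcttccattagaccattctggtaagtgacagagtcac
Vpreb2: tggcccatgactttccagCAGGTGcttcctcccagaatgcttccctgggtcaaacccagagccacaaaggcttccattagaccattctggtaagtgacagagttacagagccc
Igll1: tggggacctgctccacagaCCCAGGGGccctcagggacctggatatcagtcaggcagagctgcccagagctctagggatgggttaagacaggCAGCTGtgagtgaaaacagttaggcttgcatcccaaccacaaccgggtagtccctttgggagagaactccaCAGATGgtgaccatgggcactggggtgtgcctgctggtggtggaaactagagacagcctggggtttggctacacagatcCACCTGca
The E-boxes shown for Vpreb1 and Vpreb2 sit in nearly the same surrounding sequence. A second E-box of the Vpreb2 window, 60 bases before the RefSeq start, lies outside the 113 bases shown. The EBF-type motif occurred in 11.8% and the E-box in 44.8% of 32851 RefSeq windows of 250 bases before a start, and a match in these windows is a description of their letters only.

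**Figure D1:**
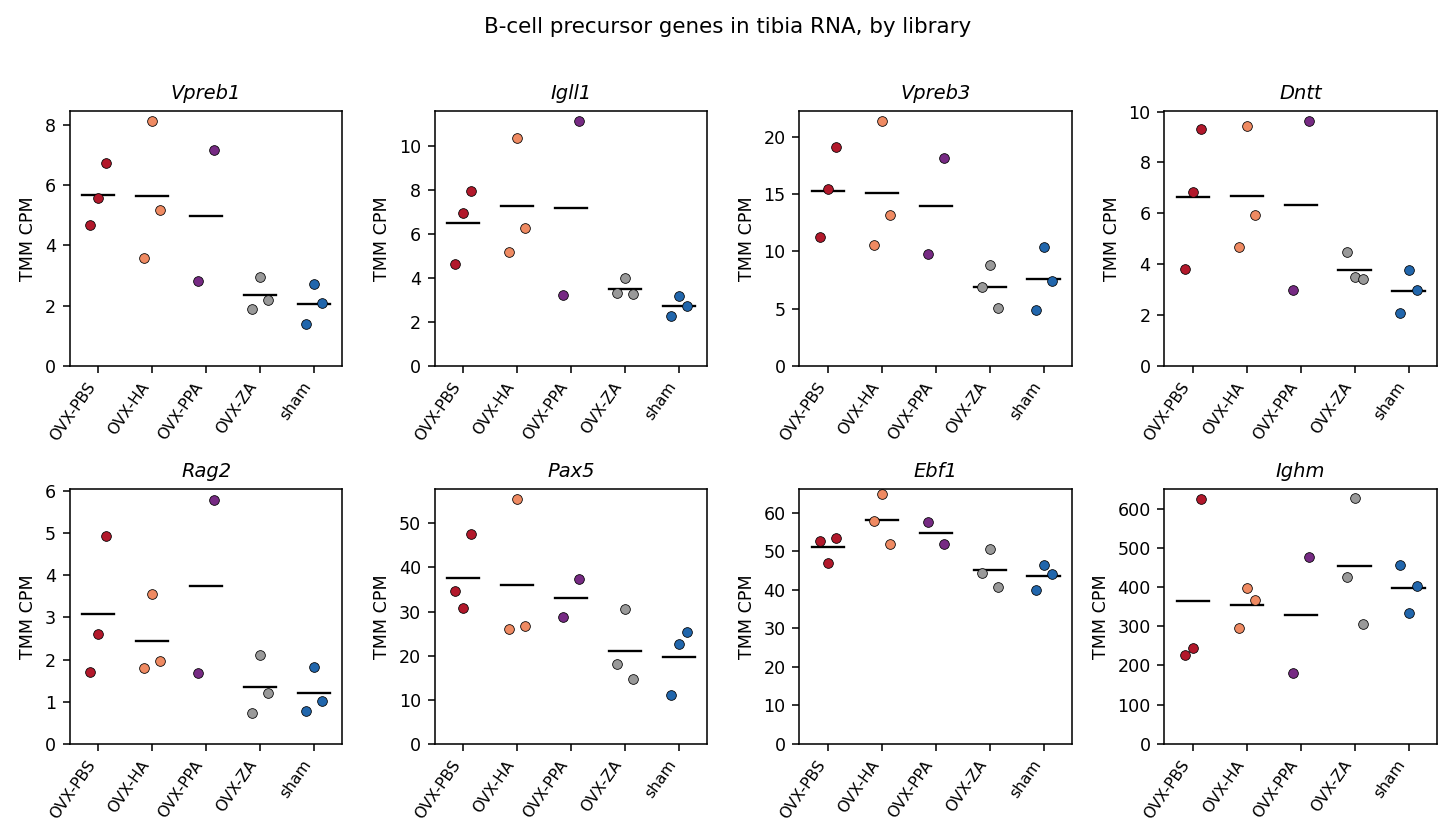
TMM CPM of 8 B-cell precursor genes in each library (points), with the mean of each group as a bar; OVX-PBS, OVX-HA, OVX-PPA and OVX-ZA stand left of sham. Vpreb1 and Igll1 lie above all sham libraries in every OVX-PBS, OVX-HA and OVX-PPA library, while Ighm overlaps throughout.

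The recombination genes ran the same way with more spread. Rag2 ran from 1.68 to 5.79 TMM CPM in OVX (median 2.29), against 0.773, 1.83 and 1.01 in sham, a log2 difference of 1.32 ± 0.47 (SE). Rag1 ran from 8.18 to 34.1 in OVX, against 4.64, 11.9 and 7.01 in sham, a log2 difference of 1.12 ± 0.47. Dntt, the terminal transferase that adds bases at antibody gene joints, ran from 2.98 to 9.65 in OVX (median 6.37), against 2.09, 3.77 and 2.98 in sham, a log2 difference of 1.16 ± 0.38. In all 3 genes the groups overlapped, and OVX-PBS replicate 3 and OVX-PPA replicate 2 were among the highest libraries.

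The transcription factors that commit cells to the B lineage were higher by smaller steps. Pax5 ran from 26.1 to 55.6 TMM CPM in OVX (median 32.8), against 11.2, 22.7 and 25.4 in sham, a log2 difference of 0.86 ± 0.29 (SE). Ebf1, which stromal and fat precursors also express, ran from 47.0 to 64.9 in OVX and from 40.0 to 46.5 in sham, a log2 difference of 0.33 ± 0.10. Vpreb3, a relative of Vpreb1, differed by 0.98 ± 0.29, with overlapping groups. The signalling adaptor Blnk differed by 0.64 ± 0.24, and Myb, a regulator of blood progenitors, by 0.59 ± 0.26. Each of these 5 genes had an unadjusted edgeR p below 0.05 and an adjusted p of 0.996.

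Lists of later B-cell stages had medians near 0, and the difference between stages was not tested. Antigen receptor genes of the precursor list that mature B cells also express had intervals that include 0, with differences of 0.34 ± 0.32 (SE) for Cd79a, 0.50 ± 0.29 for Cd79b and -0.18 ± 0.32 for Ighm, the heavy chain of IgM. The mature B cell list had a median of 0.01 over 16 tested genes, with 8 higher and 8 lower, and the plasma cell list a median of -0.09 over 16. Igkc, the kappa light chain made by mature B and plasma cells, ran from 85.5 to 307 TMM CPM in OVX, against 302, 298 and 340 in sham, a log2 difference of -0.72 ± 0.33. Leaving out sham replicate 3 moved the mature B cell median to 0.40, and that library also stood apart in Cr2, a receptor of mature B cells, which ran from 1.08 to 2.95 TMM CPM in OVX, against 1.64, 2.67 and 9.38 in sham. Il7, the stromal cytokine that pro-B cells need, ran from 1.55 to 2.29 in OVX, against 1.804, 1.46 and 1.40 in sham, a log2 difference of 0.32 ± 0.18 (edgeR adjusted p 0.996). Cxcl12, the chemokine that holds B-cell precursors in the marrow, differed by 0.13 ± 0.19.

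Neutrophil transcripts varied between libraries, and within OVX the mean of the pro-B and pre-B list rose in the same order of libraries. The amount of marrow was not measured, and erythroid genes, also of marrow, ordered the libraries otherwise. OVX-PPA replicate 1 had an erythroid mean of 8.16 log2 CPM, against 7.31, 7.90 and 7.98 in sham. The mean log2 CPM of 18 neutrophil genes, the most abundant marrow cells, was 5.62 to 7.10 in OVX, against 6.19, 7.34 and 6.09 in sham replicates 1, 2 and 3, so that sham replicate 2 was the highest of the 11 libraries and OVX-PPA replicate 1 the lowest. With the neutrophil mean subtracted from the precursor mean in each library, a measure chosen after the data were seen, OVX ran from -2.33 to -1.70, against -2.82, -3.26 and -2.27 in sham. On this scale 1 OVX library, OVX-PPA replicate 2 at -2.33, lay below sham replicate 3 at -2.27, and the other 7 lay above all sham libraries. The precursor list kept a median above 0 in all 20 alternative analyses, from 0.32 without sham replicate 1 to 0.70 without sham replicate 2.

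**Figure D2:**
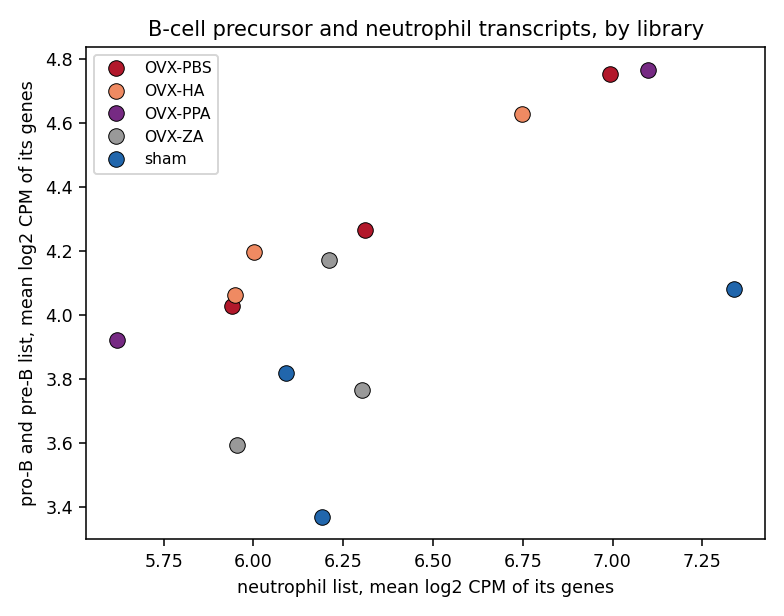
Mean log2 CPM of the 24 pro-B and pre-B genes (vertical) against that of 18 neutrophil genes (horizontal), 1 point per library, colored by group. OVX-PPA replicate 2 has a precursor mean of 4.77 at a neutrophil mean of 7.10, against 4.08 at 7.34 in sham replicate 2.

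In OVX-ZA, Vpreb1 had 1.90, 2.95 and 2.18 TMM CPM, overlapping sham. Igll1 had 3.30, 3.98 and 3.26, above the sham libraries and within the range of the 8 OVX libraries. The precursor list mean was 3.765, 4.172 and 3.593 log2 CPM in OVX-ZA replicates 1, 2 and 3. It was 3.369 to 4.08 in sham and 3.92 to 4.765 in OVX. Replicates 1 and 3 of OVX-ZA lay within the sham range and below every OVX library, and replicate 2 lay within the OVX range. In a fit of all 14 libraries the 8 OVX libraries exceeded OVX-ZA by 1.22 ± 0.32 (SE) for Vpreb1 and by 0.99 ± 0.33 for Igll1, with edgeR adjusted p of 0.501 and 0.809. That fit called 7 of 21245 genes higher (0.0329%) and 18 lower (0.0847%) in the 8 OVX libraries than in OVX-ZA. Among them were osteocalcin (Bglap), higher by 1.802 ± 0.26 with an adjusted p of 0.0137, and cathepsin K (Ctsk), the collagen-cutting protease of osteoclasts, lower at -1.46 ± 0.21 with an adjusted p of 0.0137.

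Connective tissue genes of tendon and periosteum also had higher values in OVX. Of 35 lists, the tendon and periosteum list was the one whose mean log2 CPM was above every sham library in every OVX library, at 5.61 to 6.17 in OVX, against 5.29, 5.46 and 5.59 in sham. The lowest OVX library, at 5.611, was barely above the highest sham library, at 5.593. Of its 18 genes, 16 were higher in OVX (50.2% of all genes). Of these, 7 were higher at an unadjusted edgeR p below 0.05 (1.4% of all genes) and 5 without overlap (0.503% of all genes). The median log2 difference was 0.35, 0.23 without sham replicate 1, and 0.22 without the 2 libraries that lacked nervous tissue transcripts.

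Col14a1, a collagen that binds to the surface of fibrils, ran from 37.4 to 51.2 TMM CPM in OVX (median 40.2), against 27.0, 24.5 and 31.7 in sham. Every OVX library was above every sham library, and the difference of 0.57 ± 0.11 (SE, 95% interval 0.33 to 0.81) had a DESeq2 adjusted p of 0.00732 and an edgeR adjusted p of 0.658. By treatment it was 0.66, 0.56 and 0.45 in OVX-PBS, OVX-HA and OVX-PPA. Aspn, a small leucine-rich proteoglycan, ran from 51.7 to 76.4 in OVX (median 63.2), against 40.8, 43.5 and 48.7 in sham, a difference of 0.50 ± 0.13. It lies within Cenpp, on the other strand, which differed by 0.42 ± 0.25. Kera, another proteoglycan of that family, ran from 6.33 to 16.8 in OVX (median 8.74), against 5.54, 3.72 and 5.57 in sham, a difference of 1.00 ± 0.29. Lum and Postn, both matrix proteins of fibroblasts, also did not overlap, with differences of 0.51 ± 0.19 and 0.41 ± 0.14. Tnmd, a marker of mature tendon cells, differed by 0.68 ± 0.19, with 1 OVX library, OVX-HA replicate 1 at 6.90, inside the sham range of 6.61 to 7.04. Scx, the transcription factor of tendon precursors, had a difference of 0.07 ± 0.12.

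Of 22 genes for collagens and their processing, a list that also holds Postn, 19 were higher in OVX (50.2% of all genes) and 5 of them at an unadjusted edgeR p below 0.05 (1.4% of all genes), with a median of 0.19 that was 0.11 with the level of nervous tissue transcripts as a covariate. Col3a1, the fibrillar collagen of soft tissue, ran from 259 to 409 TMM CPM in OVX, against 216, 176 and 279 in sham, a difference of 0.47 ± 0.16 that was 0.30 without sham replicate 2. In OVX-ZA, Col14a1 had 41.2, 35.0 and 39.6 TMM CPM, within or just below the OVX range. For this gene the 8 OVX libraries differed from OVX-ZA by 0.10 ± 0.10. The tendon and periosteum list mean was 5.933, 5.394 and 5.759 log2 CPM in OVX-ZA replicates 1, 2 and 3. Replicate 2 lay within the sham range, and replicates 1 and 3 within the OVX range. Cartilage genes had a larger median of 0.64, with 18 of 18 tested genes higher (50.2% of all genes) and 2 at an unadjusted p below 0.05 (1.4% of all genes), Col9a1 and Col10a1. That median was 0.24 without OVX-PBS replicate 1 and OVX-HA replicate 2, the libraries with little nervous tissue RNA, which held the most cartilage RNA, and without sham replicate 3 it was 0.91.

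**Figure D3:**
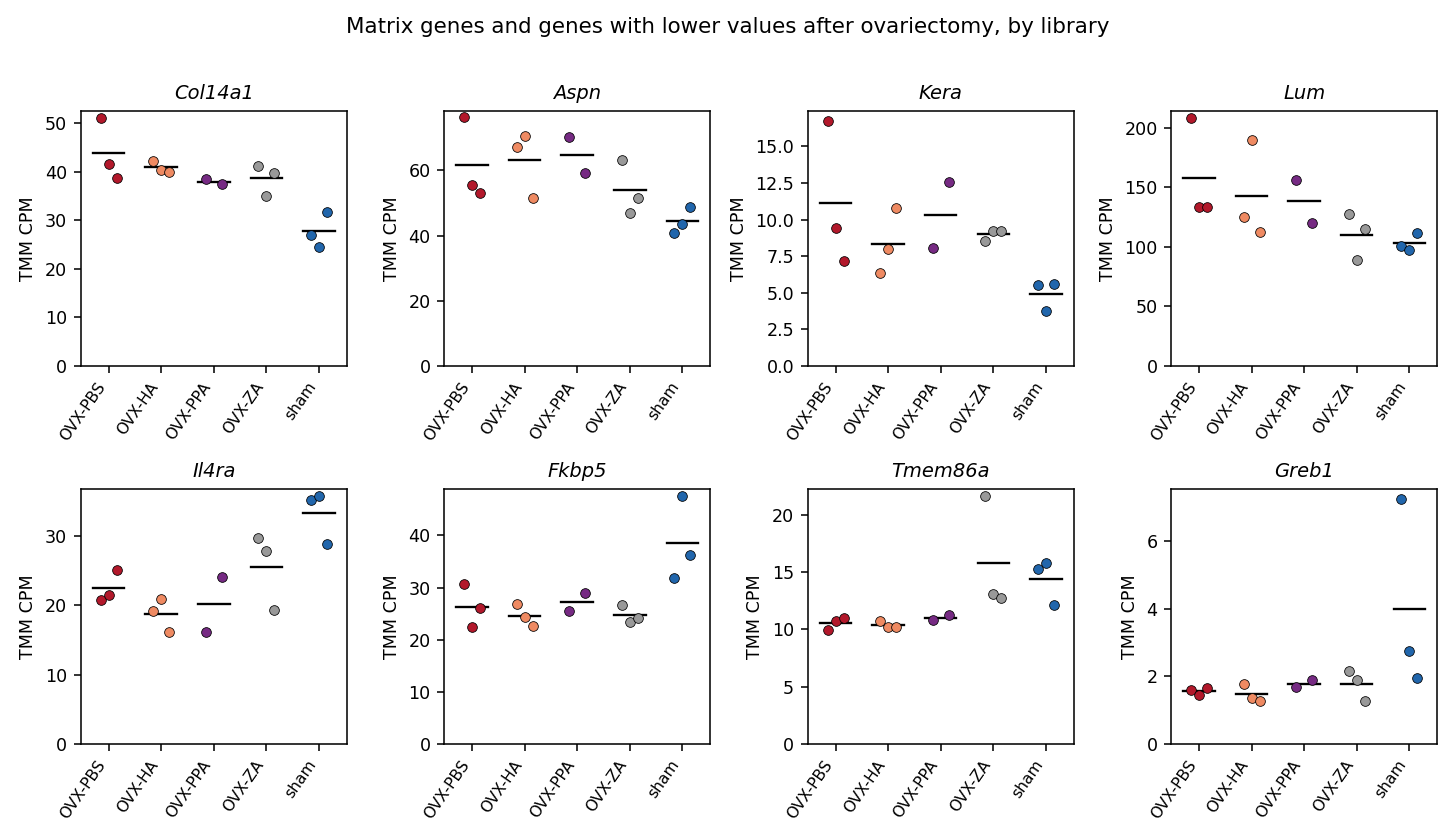
TMM CPM of 4 matrix genes and 4 genes with lower values in OVX, in each library (points) with the group mean as a bar. Col14a1, Aspn, Kera and Lum in OVX-PBS, OVX-HA and OVX-PPA lie above sham, and Il4ra, Fkbp5, Tmem86a and Greb1 below it, in every library.

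Among genes with lower values, Il4ra, the receptor chain shared by interleukin 4 and interleukin 13, ran from 16.2 to 25.0 TMM CPM in OVX (median 20.9), against 35.2, 35.8 and 28.8 in sham. The groups were apart, and the log2 difference was -0.70 ± 0.14 (SE, 95% interval -0.9998 to -0.40), with a DESeq2 adjusted p of 0.0419 and an edgeR adjusted p of 0.658. Tmem86a, an enzyme that breaks down lysoplasmalogen lipids, ran from 9.93 to 11.2 in OVX (median 10.7), against 15.2, 15.7 and 12.1 in sham. The 8 OVX libraries were close together, and the difference was -0.44 ± 0.09 (DESeq2 adjusted p 0.0419, edgeR 0.958). In OVX-ZA replicates 1, 2 and 3, Il4ra had 360, 622 and 468 counts and Tmem86a 262, 292 and 308. After TMM scaling, every OVX-ZA library lay above the OVX range of Tmem86a. For Il4ra, replicate 1 lay within the sham range, replicate 2 between the groups and replicate 3 within the OVX range. Il4ra and Tmem86a were chosen after their values were seen.

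Fkbp5, a co-chaperone of steroid receptors whose gene is induced by glucocorticoids, ran from 22.4 to 30.6 TMM CPM in OVX (median 25.8), against 31.8, 47.6 and 36.2 in sham. The difference was -0.58 ± 0.13 (SE), with a DESeq2 adjusted p of 0.0419 and an edgeR adjusted p of 0.958, and the OVX-ZA libraries, at 26.7, 23.3 and 24.1, lay within the OVX range. Other genes induced by glucocorticoids had mixed directions. Tsc22d3 (GILZ) ran from 116.1 to 146 in OVX, against 94.8, 109 and 115.9 in sham, a difference of 0.31 ± 0.09. Sgk1, a kinase of salt balance, differed by 0.32 ± 0.12, and the list of 17 such genes had 9 higher and 8 lower members with a median of 0.04.

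Genes of the estrogen response gave no common direction. Of 19 tested genes on that list, 8 were higher and 11 lower, with a median of -0.03. Greb1, a coactivator whose gene is a direct estrogen target in breast cells, ran from 1.28 to 1.88 TMM CPM in OVX (median 1.62), against 7.25, 2.76 and 1.94 in sham. No OVX library reached the lowest sham value, although it was within 0.1 of it, and the difference of -1.33 ± 0.30 (SE, edgeR adjusted p 0.996) was -0.57 without sham replicate 1, the library that carried adrenal transcripts. The part of those transcripts in the Greb1 value was not tested. Esr1, estrogen receptor alpha, ran from 18.2 to 28.7 in OVX, against 20.03, 15.3 and 22.4 in sham, a difference of 0.31 ± 0.14 that was 0.15 without sham replicate 2. Pgr, the progesterone receptor and a target of Esr1, differed by -0.20 ± 0.51, and it was 0.628 and 0.642 in the 2 libraries with little nervous tissue RNA against 2.19 to 4.84 in the other 9. Igf1, a growth factor of bone and liver, ran from 28.7 to 40.3 in OVX, against 23.1, 18.7 and 30.3 in sham, a difference of 0.42 ± 0.15 that was 0.25 without sham replicate 2.

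Bone-resorbing genes were not separated between OVX and sham. Ctsk ran from 114 to 251 TMM CPM in OVX, against 177, 226 and 140 in sham, a difference of -0.06 ± 0.21 (SE, 95% interval -0.51 to 0.40). Acp5, the tartrate-resistant phosphatase of osteoclasts, differed by -0.09 ± 0.20 with an interval of -0.51 to 0.34. Of 20 osteoclast genes, 18 were lower in OVX, while 50.2% of all genes were higher. At an unadjusted edgeR p below 0.05, 0 of them were lower (1.17% of all genes). The median was -0.11, which turned to 0.036 without sham replicate 2. The intervals of Ctsk and Acp5 leave room for differences of up to 0.40 and 0.34 log2 units upward. Tnfsf11 (RANKL) ran from 1.12 to 3.12 in OVX, against 1.55, 2.08 and 2.09 in sham, and Tnfrsf11b (osteoprotegerin) from 5.43 to 12.4, against 5.70, 5.86 and 7.41. The log2 ratio of Tnfsf11 to Tnfrsf11b averaged -1.99 ± 0.31 in OVX (SD, n = 8) and -1.73 ± 0.21 in sham (SD, n = 3), with a two-sided exact permutation p of 0.236, where 165 arrangements allow a smallest p of 0.00606.

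Of 20 genes of osteoblasts, the bone-forming cells, 18 were higher in OVX (50.2% of all genes), 2 of them at an unadjusted edgeR p below 0.05 (Omd and Col22a1, against 1.4% of all genes), with a median of 0.27 that was 0.14 without OVX-HA replicate 2. Bglap (osteocalcin) ran from 129 to 360 TMM CPM in OVX (median 188), against 140, 163 and 131 in sham, a difference of 0.45 ± 0.26 (SE, interval -0.11 to 1.00) that was 0.26 without OVX-HA replicate 2. Col1a1 differed by 0.44 ± 0.25 and Alpl, the alkaline phosphatase of mineralizing cells, by 0.17 ± 0.17, or 0.082 without OVX-HA replicate 2. The osteoblast median was 0.05 with the level of nervous tissue transcripts as a covariate, and the 2 libraries with little nervous tissue RNA had the highest means of this list, 6.39 for the OVX-PBS and 6.73 for the OVX-HA library. Sost, the Wnt inhibitor of osteocytes, differed by 0.05 ± 0.37, with a span of 4.05 to 14.4 in OVX, against 6.70, 8.16 and 8.38 in sham. Wif1, another Wnt inhibitor, was higher by 0.52 ± 0.19, while Sfrp4 was lower at -0.42 ± 0.14 and Fgf23, the phosphate hormone of osteocytes, at -1.09 ± 0.39 on values of 0.0647 to 0.325 in OVX and 0.322 to 0.676 in sham, a difference that was -0.72 without sham replicate 2.

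**Figure D4:**
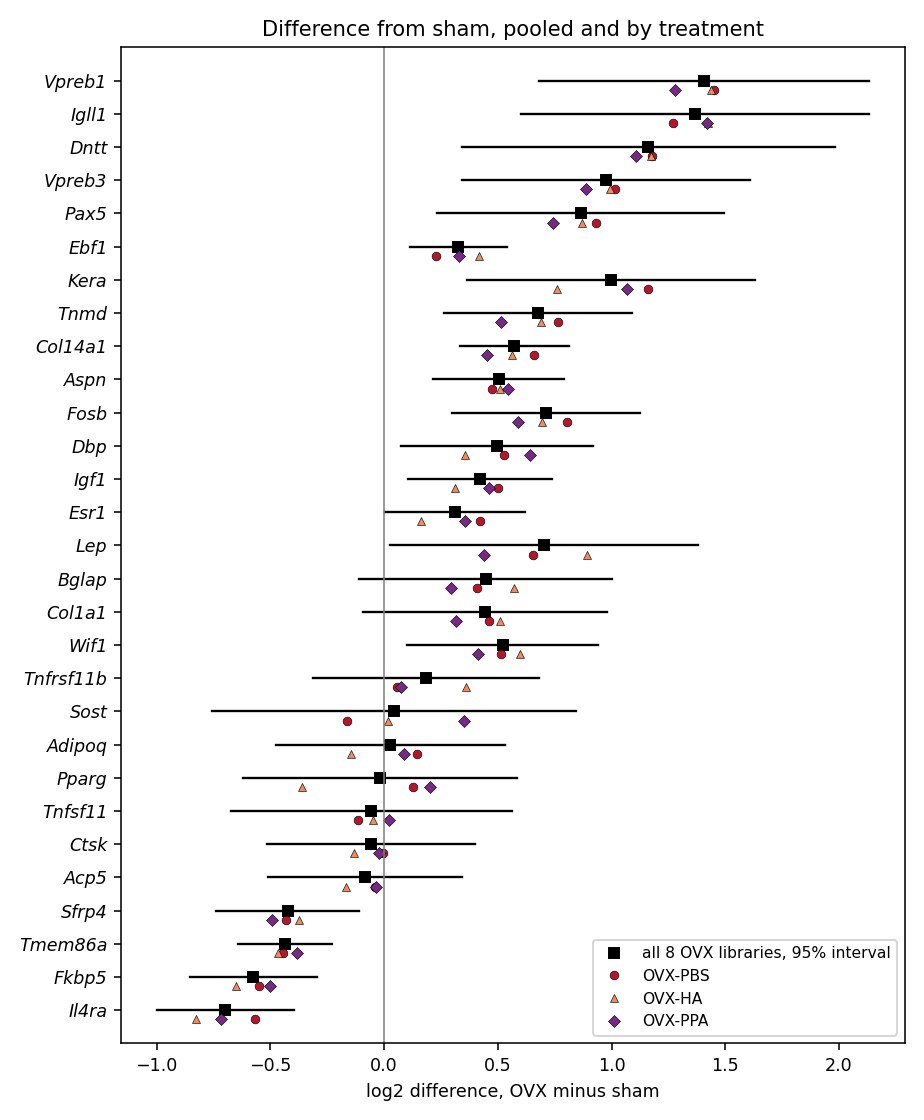
Log2 difference of OVX minus sham for 29 genes, as a square with its 95% interval for all 8 OVX libraries and as colored points for OVX-PBS, OVX-HA and OVX-PPA, each against the same 3 sham libraries. Vpreb1 and Igll1 lie near 1.4, the osteoclast genes Ctsk and Acp5 near 0, and Il4ra at -0.70.

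Marrow fat genes were not separated. Adipoq and Pparg, the fat hormone adiponectin and the master regulator of fat cells, differed by 0.03 ± 0.23 and -0.02 ± 0.28 (SE), and the list of 18 had a median of -0.13, which turned to 0.12 without sham replicate 3. Leptin (Lep) had 6.93 to 16.2 TMM CPM in OVX against 4.83, 4.39 and 10.4 in sham, a difference of 0.70 ± 0.31 (edgeR adjusted p 0.996) that was 0.46 without sham replicate 2 and 1.201 without sham replicate 3. Of 19 circadian clock genes, 13 were higher (50.2% of all genes) and 6 lower in OVX, with a median of 0.16 that was 0.096 without sham replicate 2. At an unadjusted edgeR p below 0.05, 4 were higher (1.4% of all genes) and 1 lower (1.17%). Among them, the clock outputs and repressors Dbp, Nr1d2, Per2 and Per3 were each higher in OVX by 0.25 to 0.50, and Npas2, a partner on the activating side, was lower at -0.28 ± 0.11, all at an unadjusted edgeR p below 0.05. Time of collection is not in the labels, and its part in these values was not tested. The immediate early genes, which respond within minutes to handling and other stimuli, had 17 of 19 members higher (50.2% of all genes). Of these, 3 were higher at an unadjusted edgeR p below 0.05 (1.4% of all genes), and the list median was 0.26. Fosb led them at 2.17 to 3.54 in OVX against 1.45, 1.72 and 2.34 in sham, a difference of 0.71 ± 0.19.

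In edgeR the smallest p-values of all belonged to genes made by other organs. In DESeq2 the smallest adjusted p, 0.00732, was that of Col14a1. Hsd3b1, a steroid-making enzyme of the adrenal gland, had at most 0.425 TMM CPM in OVX, where 3 of 8 libraries were at 0, against 566, 0.225 and 3.20 in sham replicates 1, 2 and 3. Cyp21a1, Cyp11b1, Cyp11a1 and Mgarp were likewise highest in sham replicate 1, and Star, the carrier that brings cholesterol into mitochondria, had 3.95 to 6.05 in OVX against 325, 5.49 and 6.54 in sham. Albumin (Alb), made by the liver, had 0.285 to 2.39 in OVX, against 13.4, 13.3 and 0.827 in sham. Glycam1, made by the vessels of lymph nodes, had at most 0.913 in OVX, against 0.129, 0.394 and 32.4 in sham, and Marco, a scavenger receptor of macrophages, at most 0.913 in OVX, against 0.226, 0.479 and 27.2 in sham. OVX-ZA replicates 1 and 2 also held Glycam1, at 14.6 and 38.6. OVX-ZA replicate 2 held adrenal transcripts too, with 541 counts of Hsd3b1, 404 of Cyp21a1 and 749 of Star, and it had 216 of Marco. Its mean over an adrenal list, added after the data were seen, was 3.03 log2 CPM, against 7.37, -0.79 and 0.84 in sham. The liver list had a median of -1.33, which kept its direction in all 20 alternative analyses. It ran from -3.098 without sham replicate 3 to -0.48 without OVX-PBS replicate 2. The lymph node and T cell lists turned on a single library, sham replicate 3. The lymph node median of -0.58 was -0.01 without sham replicate 3, and the median of T and natural killer cell genes, -0.43, was -0.10 without it. Cd8b1, a chain of the CD8 coreceptor of T cells, had a difference of -2.46 ± 0.71 (SE) that was -0.25 without sham replicate 3. Small noncoding and nuclear RNAs, a list of 7 added after the data were seen, had a median of -1.15. Of these, 6 were lower in OVX at an unadjusted edgeR p below 0.05 (1.17% of all genes). Rn7s1 and Rn7s2, both among the 6, had the same counts in every library and are not separate measurements. The list mean was 3.22 to 4.61 log2 CPM in OVX, against 4.36, 4.46 and 5.49 in sham, and OVX-PBS replicate 1 and OVX-HA replicate 2, at 4.51 and 4.61, lay within the sham range. Rn7sk, a noncoding RNA that holds back transcription elongation, had 2.32 to 10.2 TMM CPM in OVX, against 8.95, 10.8 and 22.1 in sham, a difference of -1.48 ± 0.44. Malat1, a nuclear noncoding RNA, had 157 to 218 in OVX, against 496, 168 and 501 in sham, a difference of -1.02 ± 0.24. The part of these transcripts in the other differences was not tested.

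**Figure D5:**
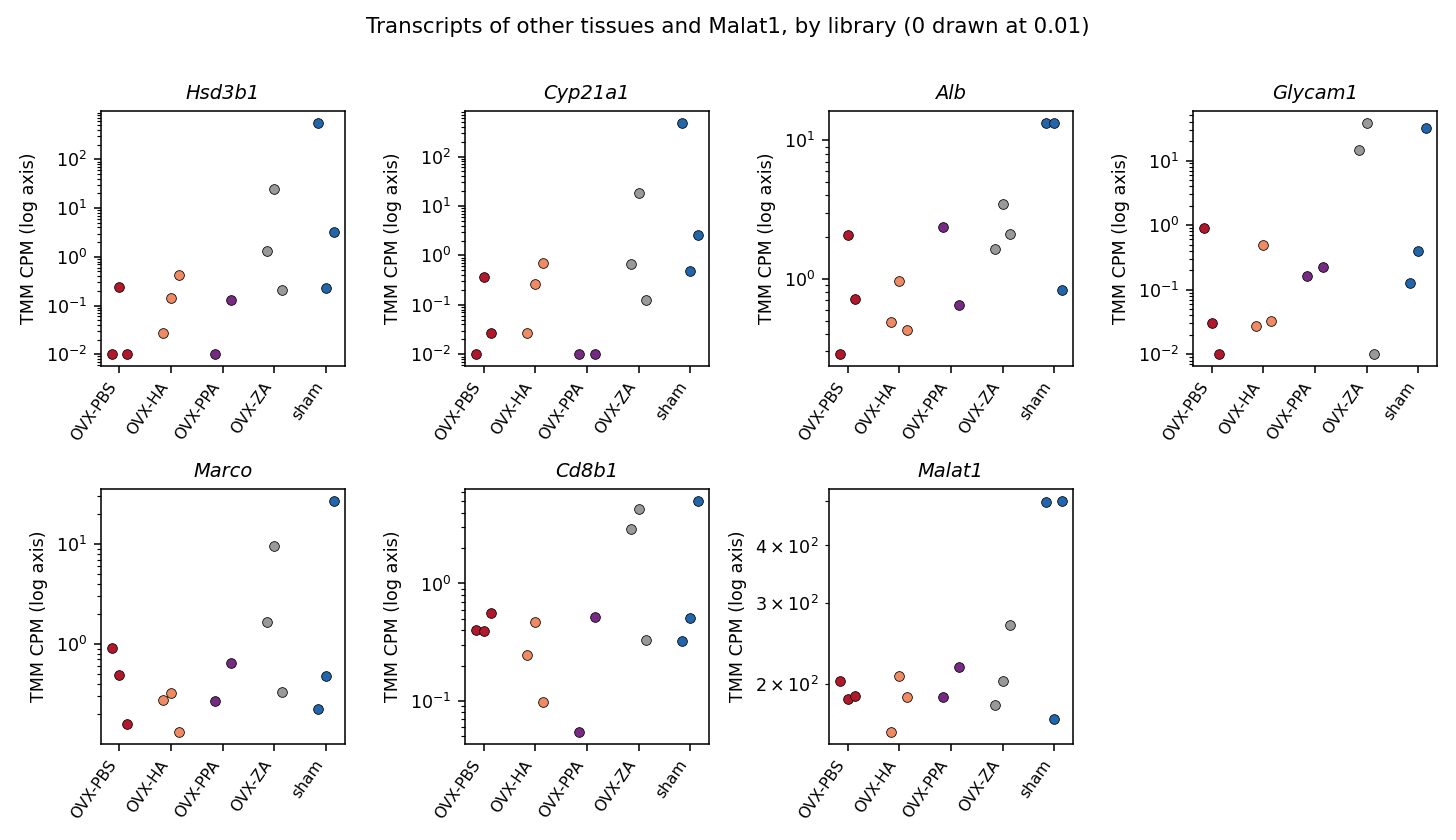
TMM CPM on a log axis of adrenal (Hsd3b1, Cyp21a1), liver (Alb), lymph node and lymphocyte (Glycam1, Cd8b1), macrophage (Marco) and nuclear (Malat1) transcripts in each library, with values of 0 drawn at 0.01. The adrenal transcripts peak in sham replicate 1 (566 for Hsd3b1) and are next highest in OVX-ZA replicate 2. Glycam1 is high in sham replicate 3 (32.4) and in OVX-ZA replicates 1 and 2.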

How the data were processed

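Poly(A) RNA of tibia was made into libraries with a stranded mRNA kit and read as single ends of 75 bases, per the labels' protocols. Per the submitters' processing notes, the tools were STAR 2.7.8a, Partek, CASAVA 1.8.1 and Bowtie2 2.2.5 and the build was mm10, without the role of each; annotation and strandedness of counting were not given in the sources used here. The authors deposited estimated counts per gene symbol, not normalized, of which 20.7% were not whole numbers. A second table, deposited by the authors as log2 normalized counts, was not tested.

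Counts were rounded, filtered with edgeR's filterByExpr by pool, scaled by TMM and fitted with edgeR 4.0.16 (R 4.3.3, quasi-likelihood, 2 levels, two-sided tests, FDR 0.05, 9 residual degrees of freedom, biological coefficient of variation 24.9%). A fit with a mean per group gave the differences by treatment and the test among OVX treatments. DESeq2 1.42.0 was an alternative. Scripts were tested on simulated data. Lists (35, and 3 added later) were described by counts, medians and mean log2 CPM with a prior count of 2, without a test. Members, lists and rules were chosen with earlier results of these data known. By rule, the text names the 6 genes with the smallest p in each direction, the 2 leading members of each list below an unadjusted p of 0.05, and 17 bone, fat and B-cell genes; of these Bcl7a, Emid1, Elovl3, Igfbp5, Dhcr7, Ccl5, Cxcl13, Ahsg and Fos are left to the closing section. Other named genes were chosen after their values were seen. Replicate numbers were not used as pairs in the main fit. Of 8 same-numbered pairs of OVX and sham libraries, 3 had correlated deviations above 0.1 (range -0.48 to 0.43). The deviations are from means of 2 or 3 libraries and so depend on each other, and these correlations cannot decide whether samples were paired. Some genes are not reported here.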

Additional observations from a re-analysis of the deposited data

Results flagged for a closer look

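Within the 8 OVX libraries, 64 genes and 35 list means were screened for a library whose gap to the next, as a share of the whole range, exceeded Dixon's 95% critical value; chance flags about 1 group in 20. Of these, 8 genes and 1 list were picked out. OVX-HA replicate 2 was highest for Bglap (360 TMM CPM, next 202), Tnfrsf11b (12.4, next 7.37), Sfrp4 (31.4, next 24.6) and Emid1 (8.67, next 7.32), and lowest for the hair and skin list (mean log2 CPM 0.109, next 0.631). OVX-PBS replicate 1 was highest for Col14a1 (51.2, next 42.3) and Fos (52.0, next 29.4). These 2 libraries are the ones with little nervous tissue RNA. Cxcl13, a chemokine of lymphoid tissue, was highest in OVX-PBS replicate 2 (2.13, next 0.709), and the adrenal enzyme Cyp11b1 in OVX-HA replicate 3 (0.392, next 0.121).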

How the results depend on the processing

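The 20 alternatives were DESeq2, other scaling, no filter, robust moderation, a replicate block, equal weights for treatments (with and without OVX-ZA in the fit), a nervous tissue covariate, the 9 libraries with nervous tissue transcripts and leaving out each of the 11 libraries. The count of genes called higher was 0 in all of them except DESeq2, which gave 2, and the range over left-out libraries was 0 to 0. The count called lower was 0 except for 4 with DESeq2, 3 with the nervous tissue covariate, and 0 to 11 over left-out libraries. The covariate calls were Rn7sk, Rn7s1 and Rn7s2, of which Rn7s1 and Rn7s2 had the same counts in every library. The 11 calls without sham replicate 2 and the 10 without sham replicate 3 were adrenal genes with Malat1 in one case, and adrenal and liver genes in the other. The count at an unadjusted p below 0.05 was 1191 with no filter and 453 to 868 over left-out libraries, the highest without sham replicate 3; with the replicate block it was 485, and the block changed no call. Of 64 genes followed, 57 kept one direction in every setting that tested them. Among them were Vpreb1 (1.19 to 1.65), Igll1 (1.24 to 1.49), Col14a1 (0.47 to 0.68), Il4ra (-0.79 to -0.65) and Fkbp5 (-0.70 to -0.41). Cr2 and Cxcl13 kept theirs too but were only -0.0065 and -0.052 without sham replicate 3. The genes were chosen with results of these data known, and the settings share most libraries, so a kept direction is not separate support. The genes that changed direction lie near 0. Pgr was 0.13 in the 9 libraries and 0.11 with the covariate. Sost was -0.015 with the replicate block, -0.18 in the 9 libraries and -0.19 with the covariate. Over left-out libraries Sost ran from -0.14 to 0.14, Acp5 from -0.19 to 0.018, Adipoq from -0.25 to 0.23, Ctsk from -0.21 to 0.12, Pparg from -0.25 to 0.16 and Tnfsf11 from -0.22 to 0.024. The causes were not tested. Of 35 lists, 13 kept one direction of the median. The Vpreb1 difference of 1.41 did not pass the FDR in edgeR.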

Other observations

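Erythroid genes and cell cycle genes were higher in OVX in every tested member (16 of 16, median log2 difference 0.32, and 21 of 21, median 0.25), against 50.2% of all genes. None was higher at an unadjusted edgeR p below 0.05, against 1.4% of all genes. Their list means were highest in OVX-HA replicate 2 (9.05 and 6.68), without that library the medians were 0.090 and 0.086, and with the nervous tissue covariate the medians were -0.0037 and -0.0076. Skeletal muscle genes had 20 of 20 members higher (50.2% of all genes) with a median of 0.16, which was -0.07 without sham replicate 2. The share of counts from these genes was 5.67 to 9.29% in OVX, against 6.76, 4.99 and 8.51% in sham replicates 1, 2 and 3.

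Bcl7a, a subunit of the SWI/SNF remodelling complex expressed in lymphoid cells, ran from 51.4 to 65.5 TMM CPM in OVX, against 37.6, 48.3 and 41.3 in sham, without overlap, and OVX-ZA had 37.3, 40.9 and 39.0. The 8 OVX libraries exceeded sham by 0.42 ± 0.11 (SE) and OVX-ZA by 0.54 ± 0.10, with edgeR adjusted p of 0.996 and 0.0677. Emid1 differed from sham by 0.49 ± 0.13, Igfbp5, a binding protein of insulin-like growth factors, by 0.32 ± 0.13, and Fos by 0.62 ± 0.27. Elovl3, a fatty acid elongase of brown and skin fat, differed by -1.21 ± 0.46 (-0.75 without sham replicate 1), with 0.759 to 3.66 TMM CPM in OVX, against 7.44, 1.58 and 5.54 in sham. Dhcr7, the last enzyme of cholesterol synthesis, differed by -0.40 ± 0.16. In that pathway 17 of 20 genes were lower, while 50.2% of all genes were higher, and the median was -0.13. Without sham replicate 1 these values were -0.18 for Dhcr7 and -0.045 for the pathway median. The chemokines Ccl5 and Cxcl13 had at most 3.15 and 2.13 TMM CPM in OVX, against 10.3 and 6.51 in sham replicate 3, and Ahsg, made by the liver, had at most 0.546 in OVX, against 1.61, 1.15 and 0.288 in sham.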
